A study of Mus musculus with 23 samples.

Results

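B cells, the lymphocytes that make antibodies, were sought among single cells of mouse brain that had been sorted by the fluorescence of an injected, dye-coupled antibody. A cell was taken as a B cell when at least 2 of the 6 genes Cd79a, Cd79b, Ms4a1, Ly6d, Vpreb3 and Ighm had a UMI (a counted RNA molecule). The UMIs of these 6 genes together also had to exceed those of 8 genes of other cells, namely Cldn5 and Flt1 (endothelium), Aqp4 and Gja1 (astrocytes), Cx3cr1 and P2ry12 (microglia) and Cd3d and Nkg7 (T or NK cells). Of 265025 barcodes, 249715 passed a filter (500 genes or more, 800 UMIs or more, mitochondrial UMIs no higher than 10%), and 396 of these (0.159%) met the rule. They fell into 11 clusters, and only 278 of the 396 lay in the 5 clusters taken as B cell clusters. In each of these, at least 2 of Cd79a, Ms4a1, Ly6d and Vpreb3 had a UMI in 50% or more of the cells. None of the 8 excluding genes did, so genes of the rule set this choice too. The other 118 lay in 6 clusters that also or mainly carried genes of macrophages, astrocytes, endothelial cells, myeloid cells or plasmacytoid dendritic cells. Of them, the 32, 11 and 9 cells of clusters 6, 9 and 10 lay in clusters that held those beside the full lists of B cell genes. Below, "B cell clusters" and "the 278" mean the 278 cells, and "B cells" with no other word means all 396.

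The mice were 12 weeks old (3.3 months in the sample labels) and were killed 24 h after an intravenous dose of 45 mg/kg. ATV-TfR, which binds the transferrin receptor, was given to TfR mu/hu KI mice, which carry a mouse/human form of that receptor. ATV-CD98hc, labelled as monovalent, binds CD98hc, the heavy chain of an amino acid carrier, and was given to CD98hc mu/hu KI mice. Control IgG, with no such binding arm, was given to C57BL/6 mice, so that treatment and genotype cannot be told apart. All 3 antibodies carried the dye AF647, and all 3 label names hold LALAPG, a set of Fc changes known to weaken binding to Fc gamma receptors. Brains were perfused, freed of olfactory bulb, cerebellum, pons and medulla, and dissociated in the presence of actinomycin D and anisomycin. Live cells were sorted into negative, low, medium and high bins of AF647 by gates set at the tertiles of positive cells in mice given ATV-TfR. Flow cytometry had found about 30% positive cells with ATV-TfR, 20% with ATV-CD98hc and 1% with control IgG. Each treatment had 2 pools, each made from a male (1) and a female (1), and every bin of a pool gave 1 library, except that the negative bin of control IgG had only that of pool 2, which gave 23 libraries.

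B cells develop in bone marrow from precursors that rearrange their antibody genes with the Rag1 and Rag2 proteins. A precursor first pairs its mu heavy chain (Ighm) with a surrogate light chain made by Igll1 and Vpreb1, then replaces that with a kappa (Igkc) or lambda (Iglc1, Iglc2, Iglc3) light chain. The mature naive cell carries IgM and IgD (Ighd) together, anchored by the signalling pair Cd79a and Cd79b. In healthy brain B cells are rare and sit mainly in the meninges and vessels, and B lineage cells that include precursors reach the meninges from the marrow of the skull.

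Libraries held 526 to 20570 kept cells at a median of 2190 to 4985 UMIs, and the B cells by the rule had a median of 2489.5 UMIs. The 6 positive-bin libraries of control IgG held 526 to 3869 kept cells, against 10431 to 20570 in those of both ATVs. Endothelial cells (2 or more UMIs of Cldn5 and Flt1) made up 94.03% to 96.5% of the high libraries of both ATVs but 2.28% and 2.62% of those of control IgG, and this share sets how much room any other cell has in a bin. No barcode sequence was a B cell in 2 libraries, and 20 of the 396 were also kept in another library with other content.

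Most of the 396 cells carried many of the rule genes. All 6 were found in 200 cells, 5 in 92, 4 in 28, 3 in 7 and exactly 2 in 69. Among the 278 cells of the B cell clusters, Cd79a and Cd79b were each found in 99.3%, Ighm in 98.9%, Ly6d in 91.4%, Ms4a1 (CD20) in 80.6% and Vpreb3 in 76.3%, shares that the choice of the cells sets in part. In 55 of the 69 cells with exactly 2, the pair was Cd79b with Ighm. Outside the rule by 1 marker stood 592 cells with a single rule gene, which was Ighm in 519 of them, and another 671 cells had 2 or more rule genes but as many or more UMIs of the 8 excluding genes. The margin was at most 2 UMIs in 45 members and in 70 of those 671. Ighm was the least specific of the 6 genes. It had a UMI in 37.5% of the 15813 cells with 2 or more UMIs of Cx3cr1 and P2ry12 (microglia and related macrophages) and in 27.6% of 203 T or NK cells, against 0.553% of endothelial cells. Cd79a, the membrane partner of IgM, was found in 0 of the 203 T or NK cells (which allows a share of up to 1.48%) and in 0.0569% of the microglia-type cells, whose median depth was 3478 UMIs. T or NK cells were chosen only where their marker UMIs exceeded those of genes that include Cd79a, Cd79b, Ms4a1 and Ighm. That choice sets their shares of Ighm and Cd79a in part.

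Genes that the rule had not used described most of these cells as B cells. Relative to all other kept cells of the same pool, Igkc led the 25 most enriched genes with a median log2 ratio of 11.49 over the 6 pools, and Pax5, the transcription factor that holds cells to the B lineage, had 8.69. Ikzf3 (Aiolos) had 8.60, Siglecg (an inhibitory receptor of B cells) 8.34, Fcmr (the Fc receptor for IgM) 8.18, Blk (a kinase of the B cell receptor) 8.15 and Spib (a transcription factor) 7.83. These values describe a set chosen by linked genes and carry no test. Ebf1, the factor that starts the B cell program, was found in 97.1% of the 278 cells of the B cell clusters and in 79.8% of all 396. Of the 12 listed genes of T or NK cells, which include the excluding genes Cd3d and Nkg7, none was found in more than 1.44% of the 278, and Gzma and Cd8a had no UMI.

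**Figure D1:**
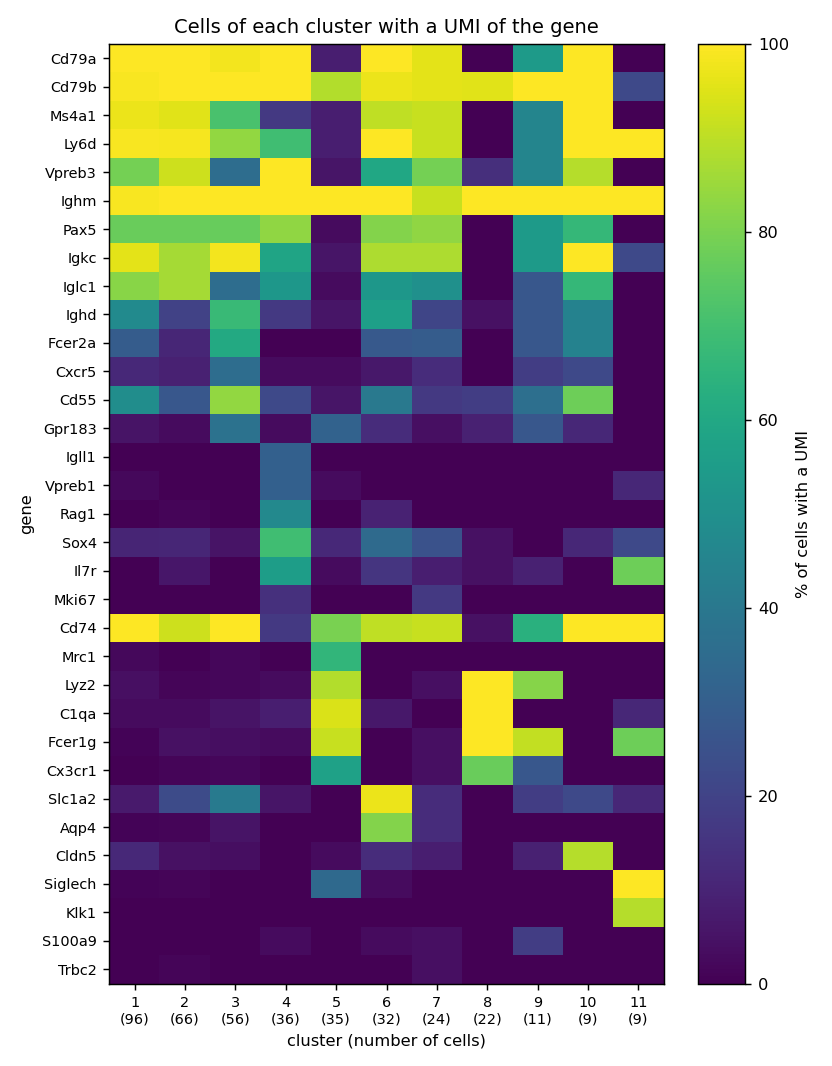
Percent of the cells of each cluster (columns, with the number of cells in brackets) that had a UMI of a gene (rows); the colour scale runs from 0 to 100%. Clusters 1, 2, 3, 4 and 7 hold Cd79a and Pax5 in most cells, whereas in clusters 5, 8 and 11 Ighm is in all cells and Cd79a in 8.57%, 0% and 0%.

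The 5 B cell clusters held several stages. Cluster 1 (96 cells) was led by Igkc, Ighm, Ltb, Cd40 and Ms4a1, and cluster 2 (66 cells) by Agbl1, Iglc1, Ms4a1, Spib, Cd24a and Vpreb3. Cluster 3 (56 cells), called mature-B-like here after its leading genes, was led by Gimap4, Ighd, Gpr183, Cxcr5 and Cd55. These include the IgD chain and receptors that guide naive B cells into follicles. The name is not particular to it. Of the 12 listed genes of mature B cells, 12 were found in at least 5% of cells in clusters 1, 3 and 7, 11 in cluster 2 and 9 in cluster 4. Cluster 4 (36 cells) was precursor-B-like, led by Vpreb1, Igll1, Rag1, Myb and Sox4, and all 12 listed genes of dividing cells were found in at least 5% of its cells. Cluster 7 (24 cells) was led by Bex3, Shisa8, Stmn1, Mcm3 and Tnfrsf13c (the BAFF receptor), with Icam1, Ccnd2 and Pcna further down. Since the clusters were made from the same cells, their leading genes are a description.

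For 118 cells the clusters' leading genes were not, or not only, those of B cells. Clusters 5 (35 cells) and 8 (22 cells) were led by macrophage genes: Mrc1, Pf4, Trem2 and Stab1 in the former, Adgre1 (F4/80), Fcrls and Aif1 in the latter. Of the border macrophage list, 8 of 9 genes in cluster 5 and 4 of 9 in cluster 8 were found in at least 5% of cells, and the summed level of the list was 11620 and 7827 CPM (UMI counts scaled to a common library total, as CPM is usually defined), against 21.9 to 92.1 CPM in the 5 B cell clusters. Of the microglia list, 10 of 10 genes in cluster 5 and 7 of 10 in cluster 8 were found in at least 5% of cells, at 14220 and 13930 CPM against 127.9 to 269.7 CPM in the B cell clusters, and 5 of the 9 border macrophage genes had no UMI in cluster 8. Both lists hold C1qa, at 4389 CPM in cluster 5, so their sums are not independent. Pax5 was found in no cell of cluster 8, and light chain RNA in 0 of its 22 cells and in 2 of the 35 cells of cluster 5. Cluster 6 (32 cells) held all 6 rule genes, light chain RNA in every cell and all 15 other listed B cell genes, together with all 10 listed astrocyte genes and a median of 6483 UMIs, and Scrublet, a doublet caller, marked 7 of its cells. Cluster 10 (9 cells) held the same B cell lists in full, light chain RNA in every cell and all 10 endothelial genes. Cluster 9 (11 cells) was led by S100a8, S100a4 and Lyz2 but also held these B cell lists in full, with no light chain RNA in 5 of its cells. In clusters 9 and 10 a gene seen in any cell meets the 5%. Cluster 11 (9 cells) was plasmacytoid dendritic cell-like, with Siglech in 100%, Klk1 in 88.9% and Ly6d in 100% of cells.

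These other cells were unevenly spread over treatments and bins. Macrophage-led cells numbered 45 of 140 with control IgG, 9 of 153 with ATV-CD98hc and 3 of 103 with ATV-TfR. All 22 cells of cluster 8 came from pool 2 of control IgG. In the high bin of control IgG they were 25 of 26 cells and in its medium bin 13 of 15, and in these bins the label of B cells did not hold: 0 of 26 and 1 of 15 cells lay in a B cell cluster. Astrocyte-led cells were the reverse, with 19 for ATV-CD98hc, 12 for ATV-TfR and 1 for control IgG. In cells of the B cell clusters alone, the counts were 80 of 118486 kept cells with ATV-TfR, 112 of 110206 with ATV-CD98hc and 86 of 21023 with control IgG.

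**Figure D2:**
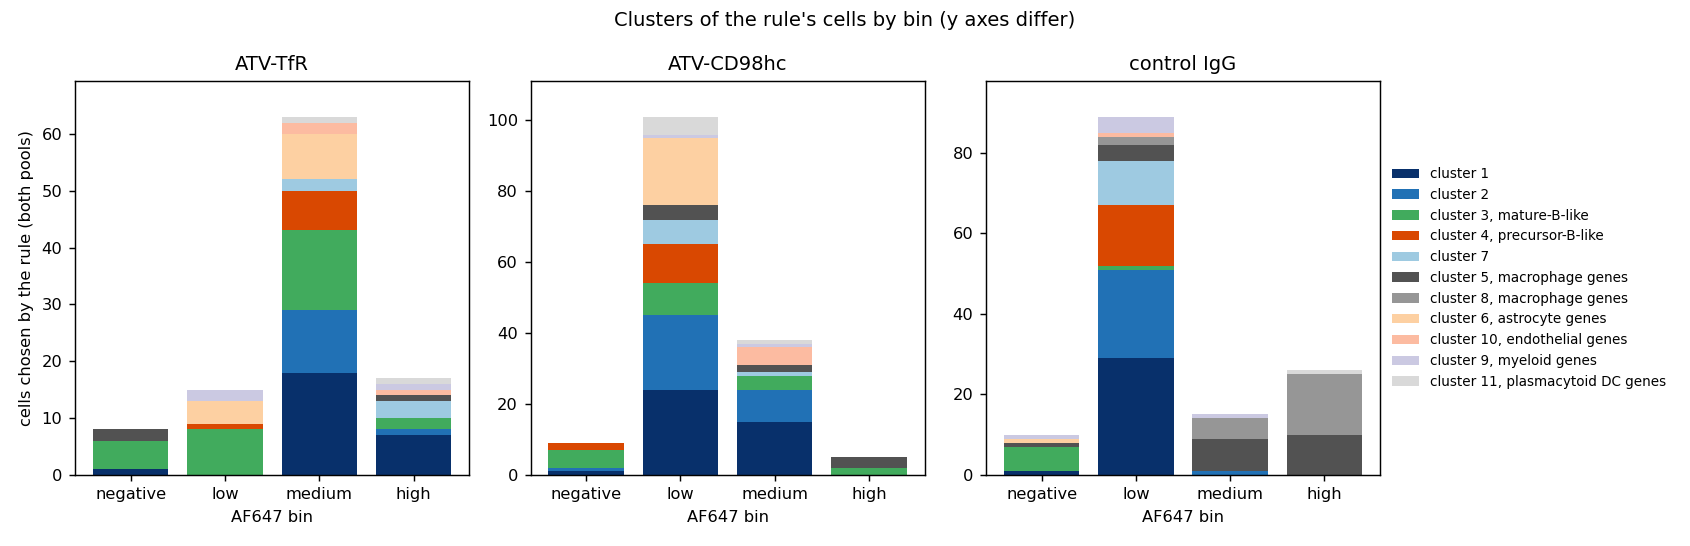
Number of cells chosen by the rule in each AF647 bin, both pools added, by treatment and coloured by cluster; the y axes differ between panels. The largest bars are the medium bin for ATV-TfR (63 cells), the low bin for ATV-CD98hc (101 cells) and the low bin for control IgG (89 cells), and the medium and high bars of control IgG are almost wholly grey, the colour of macrophage genes.

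As a share of all kept cells, B cells peaked in different bins with each ATV. With ATV-TfR the medium bin had the highest share of kept cells in both pools, 0.162% and 0.240%. Its high bin had 0.0409% and 0.0511%, its negative bin 0.0223% and 0.0901%, and its low bin 0.0186% and 0.0665%. With ATV-CD98hc the low bin was highest in both pools, with 0.377% and 0.166%. Its medium bin had 0.118% and 0.0826%, its high bin 0.0288% and 0.0150%, and its negative bin 0.135% in pool 1 and 0 of 3467 cells in pool 2, which allows a share of up to 0.0865% (3 counts). Control IgG gave the highest shares of all in its small positive bins: 2.00% and 1.14% in the low bin, 0.872% and 1.12% in the medium bin and 1.33% and 2.62% in the high bin, against 0.0822% in the single negative library. Exact (Clopper-Pearson) 95% intervals of the 2 control IgG low libraries were 1.46% to 2.67% and 0.828% to 1.52%, and cover counting error only.

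Restricted to the B cell clusters, the ATV patterns stayed and that of control IgG did not. The share was 0.125% and 0.207% in the medium bin of ATV-TfR and 0.277% and 0.111% in the low bin of ATV-CD98hc, each the highest of its pool. In control IgG the low bin had 1.82% and 0.956%, the negative bin 0.0575%, the medium bin 0% and 0.125%, and the high bin 0% in both pools (0 of 526 and 0 of 725 cells, which allow up to 0.570% and 0.414%). Low-bin libraries of control IgG thus held 78 of the 86 B cells of those clusters in that treatment.

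The peaks moved when only cells with fewer than 2 UMIs of Cldn5 and Flt1 were counted, which leaves out the endothelial cells that fill the bright bins. Among these non-endothelial cells the share of B cells by the rule with ATV-TfR was 0.0229% and 0.0922% in the negative, 0.0192% and 0.0677% in the low, 0.190% and 0.299% in the medium and 0.738% and 1.32% in the high bin, so the high bin was highest in both pools. With ATV-CD98hc it was 0.137% and 0 of 3380 cells (which allows up to 0.0888%) in the negative, 0.441% and 0.192% in the low, 0.854% and 0.678% in the medium and 0.482% and 0.332% in the high bin, so the medium bin was highest in both pools. With control IgG, whose endothelial share was 50.6% and 64.3% in the low bin and 2.28% and 2.62% in the high bin, it was 0.0900% in the negative library, 3.96% and 3.18% in the low, 0.922% and 1.22% in the medium and 1.36% and 2.69% in the high bin. The low bin was then highest in both pools, whereas of all kept cells it was the high bin in pool 2. The high values of ATV-TfR rest on 6 of 813 and 8 of 608 cells, and those of ATV-CD98hc on 3 of 623 and 2 of 602. From the low to the medium bin this share was higher in all 4 ATV pools, whereas the share of all kept cells was higher with ATV-TfR and lower with ATV-CD98hc.

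**Figure D3:**
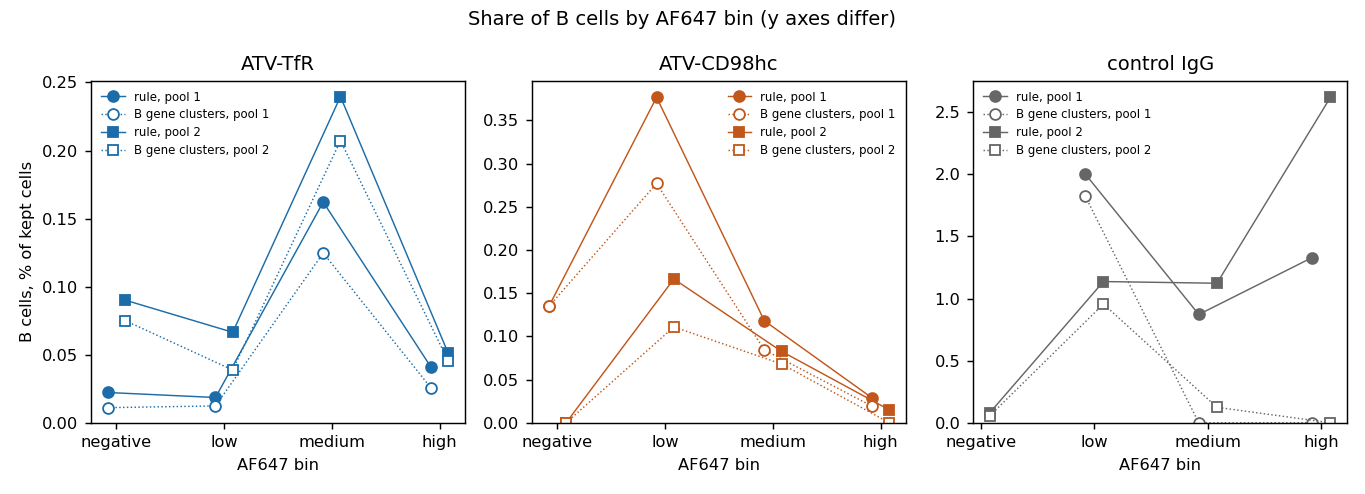
Share of B cells, in percent of kept cells (y axis, scales differ between panels), by AF647 bin (x axis), 1 point per library; circles are pool 1, squares pool 2, filled points all cells by the rule, open points cells of the 5 B cell clusters. Shares of all kept cells peak in the medium bin with ATV-TfR (0.162% and 0.240%) and in the low bin with ATV-CD98hc (0.377% and 0.166%), and the filled and open points of control IgG part in the medium and high bins.

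None of these differences over the bins passed a test on the shares of all kept cells of both sexes. Per bin, the logit share changed by a slope of 0.14 with ATV-TfR (adjusted p = 0.617, two-sided exact permutation test of bin labels over the libraries, Benjamini-Hochberg over 3 treatments), -0.27 with ATV-CD98hc (adjusted p = 0.617) and 0.73 with control IgG (p = 0.0492, adjusted p = 0.148). A test of any difference between the 4 bins, added because the shares peak in the middle, gave adjusted p = 0.248, 0.248 and 0.143 by the same exact permutation, and 0.208 for each within pools. In that test bins accounted for a fraction of 0.681 of the variance of the logit share with ATV-TfR, 0.656 with ATV-CD98hc and 0.948 with control IgG. The slope of control IgG was -0.45 in the B cell clusters alone and -0.21 in cells with at least 3 rule genes. Single pools also turned directions: the slope was -0.05 with ATV-TfR and 0.0093 with ATV-CD98hc without pool 1, and -0.18 with control IgG without pool 2. Among non-endothelial cells the fitted slope over the bins was positive and passed with both ATVs, although single steps went down: from the negative to the low bin in both pools of ATV-TfR, and from the medium to the high bin in both of ATV-CD98hc. The slope was 1.079 with ATV-TfR (adjusted p = 0.0262, exact permutation test) and 0.80 with ATV-CD98hc (adjusted p = 0.0369), and 0.55 with control IgG (adjusted p = 0.292). With bin labels permuted within pools only, since the bins of a pool come from the same mice, both calls held (adjusted p = 0.0417 for each, exact permutation test). Male cells alone had a slope of 0.62 with ATV-TfR on all kept cells (adjusted p = 0.0357, exact permutation test), which did not pass within pools (adjusted p = 0.0729). For the B cell clusters the slope was 0.18 with ATV-TfR on all kept cells (adjusted p = 0.564, exact permutation test) and 1.16 among non-endothelial cells (adjusted p = 0.0333, and 0.0417 within pools, exact permutation test). Among non-endothelial cells it was 0.53 with ATV-CD98hc (adjusted p = 0.323, exact permutation test) and -0.65 with control IgG, and neither passed.

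T or NK cells, found by a rule of the same form (203 cells), were most frequent in the negative bin with ATV-TfR. There 44 of 64 were in the negative bin, and their share of kept cells was 0.256% and 0.316% in the negative, 0.0619% and 0.0222% in the low, 0.0187% and 0.00648% in the medium and 0.00511% and 0.00568% in the high bin. The test of any difference between the 4 bins passed for these cells with ATV-TfR (adjusted p = 0.0286, exact permutation test), and not with ATV-CD98hc (adjusted p = 0.114) or control IgG (adjusted p = 0.381). With bin labels permuted within pools only, the call ended (p = 0.0417, the smallest that 576 arrangements can give in this test, adjusted p = 0.125, exact permutation test). With ATV-CD98hc the mean T or NK share was 0.169% in the negative, 0.148% in the low, 0.0966% in the medium and 0.00853% in the high bin. The ratio of B to T or NK cells, as log2 with 0.5 cells added to each count, was -3.23 and -1.73 in the negative bins of ATV-TfR, -1.58 and 1.47 in the low, 2.92 and 4.64 in the medium and 2.50 and 2.66 in the high bins. It increased by 1.90 log2 per bin (adjusted p = 0.0310, two-sided exact permutation test), with 0.81 per bin for ATV-CD98hc (adjusted p = 0.0754) and 1.36 for control IgG (adjusted p = 0.0310). With bin labels permuted within pools only, the exact adjusted p was 0.0625, 0.111 and 0.0625, which ends both calls. With the B cell clusters alone the slopes were 1.96 (adjusted p = 0.0643, exact permutation test), 0.41 and -0.33. The slope of control IgG was 0.28 without pool 2 and that of ATV-CD98hc 0.35, against 1.85 and 1.28 without pool 1.

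**Figure D4:**
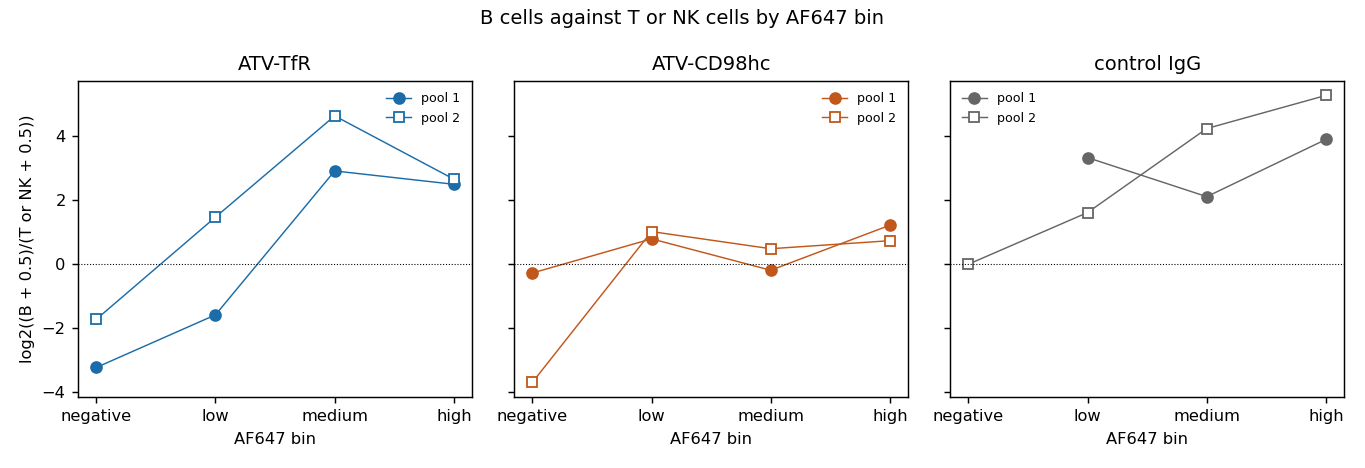
Log2 ratio of B cells by the rule to T or NK cells, with 0.5 cells added to each count (y axis, shared), by AF647 bin (x axis), 1 line per pool; the dotted line marks equal numbers. Both ATV-TfR lines climb from -3.23 and -1.73 in the negative bin to above 2.5 in the medium bin, and those of ATV-CD98hc stay between -0.28 and 1.22 apart from pool 2 in the negative bin, which held 0 B cells and 6 T or NK cells.

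The mature-B-like cluster 3 took 16 of 22 negative cells (72.7%, exact 95% interval 49.8% to 89.3%), 18 of 159 low cells (11.3%), 18 of 82 medium cells (22.0%) and 4 of 15 high cells (26.7%). It was the most frequent cluster of the negative bin in each treatment, with 5 of 6 cells under ATV-TfR, 5 of 9 under ATV-CD98hc and 6 of 7 under control IgG. In the low bins it took 8 of 9 cells with ATV-TfR, 9 of 72 with ATV-CD98hc and 1 of 78 with control IgG, and in the high bin of ATV-CD98hc 2 of 2. These intervals cover counting error only, and no test over samples was made because 4 negative libraries held 9 or fewer such cells and 1 held none. Slc1a2, an astrocyte glutamate transporter, had a UMI in 41.1% of the cells of cluster 3 and in 5.56% to 22.7% of those of the other 4 clusters; its part in this split was not tested. The counts above are shares of cluster 3 and not of all mature B cells. The mature B list summed to 6573 CPM in cluster 3 and to 6936, 6174 and 4282 CPM in clusters 1, 2 and 7.

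Of the heavy chain genes that the rule did not use, Ighd was the most often found. It had a UMI in 38.8% of the 278 cells and 34.3% of all 396, whereas Ighg1, Ighg2b, Ighg2c, Igha and Ighe, constant regions of switched antibodies, had none in either set. Ighg3, of the same kind, was found in 0.36% and 0.505%. Ighm was found in 98.9% of the 278, but is a gene of the rule. More kappa than lambda UMIs were found in 209 of the 278 cells (75.2%, exact 95% interval 69.7% to 80.1%) and more lambda in 58 (20.9%). Of all 396 cells kappa led in 61.6%, lambda in 19.9% and 71 cells had neither. Among the 278 neither was found in 10, of which 8 were in the precursor-B-like cluster 4, where kappa led in 13 of 36 and lambda in 15 of 36. The lambda-led share was 34.8% in cluster 2 and 8.93% in cluster 3. In 227 of the 278 cells both kinds of light chain had a UMI, so that the split rests on which was higher.

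Of the genes listed for plasma cells, at least 1 had a UMI in 142 of the 278 cells (51.1%, and 26.3% when each cell was thinned to 800 UMIs), most often Mzb1, a chaperone also made by naive B cells, found in 44.2%. Jchain, which joins IgM and IgA into polymers and marks plasma cells, had 101 UMIs, all in 1 cell of ATV-TfR pool 2. Xbp1 was found in 8.99% of the 278 cells and Bcl6, the germinal centre factor, in 10.4%, against 16.7% and 14.9% of all 396. Tnfrsf17 and S1pr2 had no UMI in the 278 and were found in 1 and 13 of the 396. A gene of the plasma cell list was found in 53.5% of the 396 (22.0% thinned), and Mzb1 in 35.9%. Thinned to 800 UMIs each, 89 of the 278 cells (32.0%) kept a UMI of the 13 genes listed for progenitor and precursor B cells (54.7% unthinned), as did 28.5% of all 396 (53.8% unthinned). With treatments pooled, the thinned share in the 278 was 13.6% of 22 negative cells (exact 95% interval 2.91% to 34.9%), 39.6% of 159 low cells (32.0% to 47.7%), 25.6% of 82 medium cells (16.6% to 36.4%) and 13.3% of 15 high cells (1.66% to 40.5%). Within treatments it was 11.1% of 9 low and 32.7% of 52 medium cells with ATV-TfR, 41.7% of 72 low and 13.8% of 29 medium cells with ATV-CD98hc, and 32 of 78 low cells with control IgG, so the order of low and medium differed between the ATVs. These intervals cover counting error only, cells of a library are no replicates, and no test over samples was made. The summed level of the precursor list in the 396 was lower than in all other cells in every pool except control IgG pool 1. It was 372 against 654 CPM in ATV-TfR pool 2 and 1185 against 778 CPM in control IgG pool 1. A UMI of this list therefore need not mark a precursor B cell. Dividing cell genes were kept in 40.6% of the 278 and 38.1% of the 396, a list that holds H2afz and Tubb5, which resting cells also make.

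Igll1 and Vpreb1, the genes of the surrogate light chain, were the B lineage genes that passed a test between treatments within the B cell clusters, on UMIs of few cells. The precursor-B-like cluster 4 held 8 of 80 of these cells with ATV-TfR, 13 of 112 with ATV-CD98hc and 15 of 86 with control IgG. Cluster 3 held 29 of 80, 20 of 112 and 7 of 86, and the part of this make-up in the differences was not tested. Igll1 had 0 UMIs in the 28 and 52 B cell cluster cells of the ATV-TfR pools. In the ATV-CD98hc pools it had 19 and 20 UMIs (2 of 76 and 1 of 36 cells), and in those of control IgG 39 and 25 UMIs (5 of 41 and 3 of 45 cells). The ATV-TfR pools are thus both below the other 4, and the values of the other 4 rest on 11 cells in all. A floor of 3 counts over the ATV-TfR cells lies 9.92-fold below the Igll1 level of ATV-CD98hc and 20.0-fold below that of control IgG. This floor takes UMIs as independent, whereas they lay in few cells with many UMIs each. As 1 cell with Igll1 could exceed it, no minimum fold follows. Vpreb1 had 0 and 1 UMI in the ATV-TfR pools, 25 and 29 with ATV-CD98hc (4 and 1 cells) and 40 and 44 with control IgG (3 and 4 cells), and ATV-TfR was again below every other pool. In edgeR's quasi-likelihood test of these cells both genes passed against control IgG (adjusted p = 0.000116 for each) and against ATV-CD98hc (adjusted p = 0.0044 for each). In the B cell clusters both genes, with 0 or 1 UMI in the ATV-TfR pools, could enter the test only through the other treatments. The test takes the sum of each pool and does not see in how few cells the UMIs lay. Among all 396 cells the test against ATV-CD98hc did not pass (adjusted p = 0.854 for each, edgeR). Rag1, needed for the rearrangement of antibody genes, had UMIs in all treatments, with 38.0 CPM under ATV-TfR, 65.2 under ATV-CD98hc and 53.5 under control IgG. Named after its values were seen, Vpreb2, the close copy of Vpreb1, had 0 UMIs in ATV-TfR, 8 with ATV-CD98hc and 23 with control IgG. Dntt, which adds bases at the joints of rearranging antibody genes and was also named after its values were seen, had 0, 9 and 33 UMIs. The same floor, with the same limit, lies 2.29-fold and 10.3-fold below its levels with ATV-CD98hc and control IgG. UMIs shared between Vpreb1 and Vpreb2 could have been dropped or split in counting, so the level of each alone is uncertain.

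The starts of Igll1 and Vpreb1 lie 5270 bases apart on mouse chromosome 16. The 150 bases before each start are printed because both genes were low in the same pools, and Vpreb3, a gene of the rule, is shown for comparison. They come from RefSeq on GRCm38.p6, read on the strand of the gene, 5′ to 3′, from a table with a promoter for 2 of the 6 rule genes. The other one, Cd79a, holds neither of the motifs below in its window and is not printed. Capitals mark the E box CAGGTG, bound by the factors of Tcf3, or the octamer ATGCAAAT, bound by those of Pou2f1 and Pou2f2, on either strand.
Igll1, chr16:16863986-16864135, minus strand: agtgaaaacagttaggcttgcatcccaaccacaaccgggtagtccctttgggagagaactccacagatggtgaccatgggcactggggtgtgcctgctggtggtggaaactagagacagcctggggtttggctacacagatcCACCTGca
Vpreb1, chr16:16869256-16869405, minus strand: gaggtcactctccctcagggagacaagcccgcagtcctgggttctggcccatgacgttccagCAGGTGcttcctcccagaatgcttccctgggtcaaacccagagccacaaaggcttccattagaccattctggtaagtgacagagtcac
Vpreb3, chr10:75948150-75948299, plus strand: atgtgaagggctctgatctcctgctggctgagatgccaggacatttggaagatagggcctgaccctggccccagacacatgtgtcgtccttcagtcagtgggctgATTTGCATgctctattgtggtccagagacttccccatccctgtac
The E box begins 8 bases before the start of Igll1 and 88 bases before that of Vpreb1, and the octamer 45 bases before that of Vpreb3. In windows of the same length 10.49% of 27025 genes hold this E box and 1.025% this octamer, and a match is only a match of letters.

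Of the 17 genes listed for B cell receptor signalling, Lyn had a UMI in 83.1% of the 278 cells, Siglecg in 82.0%, Syk in 74.1%, Blnk (the adaptor behind the receptor) in 68.7%, Btk in 33.8% and Cr2 (the complement receptor CD21) in 11.5%. Among all 396 these shares were 82.6% for Lyn, 67.4% for Siglecg, 69.9% for Syk, 66.4% for Blnk, 32.1% for Btk and 10.1% for Cr2. Among transcription factors Foxp1 was found in 95.7% of the 278, Bach2 in 85.3%, Klf2 (which keeps naive cells in circulation) in 75.5% and Irf4 in 16.5%, against 91.4%, 75.3%, 66.9% and 13.1% of the 396. Cd74, the chaperone of MHC class II, was found in 86.7% of the 278 and 81.8% of the 396 cells, at 3506 to 13455 CPM over the 6 pools for cells by the rule, and H2-Ab1 in 64.7% and 63.9%. In the precursor-B-like cluster 4 Cd74 was at 228 CPM, against 5222 to 14092 CPM in the other B cell clusters. Of the homing genes, Itga4 (an integrin chain) was found in 48.9% of the 278, S1pr1 (for exit into blood) in 28.8%, Ccr7 in 17.6% and Cxcr5 in 14.7%, against 48.2%, 30.8%, 14.6% and 12.1% of the 396. The hemoglobin genes Hba-a2 and Hbb-bs had no UMI in the 396 cells.

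Tfrc and Slc3a2, the genes of the receptors that the ATVs bind, were lower in B cells than in endothelial cells in every pool. Tfrc, the target of ATV-TfR, was at 54.9 CPM in the B cell clusters, at 24.0 CPM in T or NK cells and at 378 CPM in endothelial cells, with 39 UMIs in 25 of 278 cells behind the first value, and at 53.8 CPM in all 396 cells. The endothelial value pools treatments that differ: it was 190 and 219 CPM in the ATV-TfR pools and 417 to 548 CPM in the other 4. Over the 6 pools Tfrc ran from 14.2 to 79.6 CPM in the B cell clusters and from 0 to 40.5 CPM in T or NK cells, so the pools of both overlap. Free RNA also gives UMIs in droplets: among the 278 cells the astrocyte gene Slc1a2 had a UMI in 18.0% and the endothelial gene Cldn5 in 6.47%, against 8.99% for Tfrc and 11.9% for Slc3a2. The B cell values of both receptor genes are therefore not read as expression, and the part of free RNA in them was not tested. Slc3a2, which encodes CD98hc, was at 54.9 CPM in the B cell clusters, 88.4 in T or NK cells and 392 in endothelial cells, where it was 227 and 277 CPM in the ATV-CD98hc pools and 450 to 606 CPM in the other 4. In all 396 cells it was at 106 CPM, above the T or NK value, so its order between B and T or NK cells rests on which cells are counted. The pools of both overlap, at 26.5 to 101 CPM in the B cell clusters, 71.4 to 179 in all cells by the rule and 51.4 to 133 in T or NK cells. Its light chain partner Slc7a5 was at 18.3 CPM in the B cell clusters, 43.5 in all 396 cells, 46.7 in T or NK cells and 913 in endothelial cells. Fcgr2b, the inhibitory Fc gamma receptor, binds the Fc part of IgG and is known from B cells. It was at 98.5 CPM in the B cell clusters (70 UMIs in 59 cells, 56.7 to 137 CPM over the pools), at 90.6 in all 396 cells, at 2.52 CPM in T or NK cells (0 to 8.56) and at 1.36 CPM in endothelial cells, and 5 of 6 T or NK pools, with floors of 10.1 to 28.3 CPM for 3 counts, lay below all B cell pools. Its share of cells with a UMI was 21.2% of the 278, 0.985% of T or NK cells and 0.391% of endothelial cells, both of which were deeper. The T or NK value of control IgG pool 1 rests on 5 cells with 0 UMIs and a floor of 224 CPM, which shows no order. Cells with Cx3cr1 and P2ry12 had 128 CPM. Fcgr1, Fcgr3 and Fcgr4, the activating Fc gamma receptors, had no UMI in the 278 cells, and Fcer1g, the chain they share, had 19.7 CPM. In all 396 cells, with the macrophage-led ones, Fcgr1 was found in 20, Fcgr3 in 34 and Fcgr4 in 18 cells, and Fcer1g was at 1077 CPM. Fcgrt, the neonatal Fc receptor that recycles IgG, had 15.5 CPM in the B cell clusters, 55.3 in all 396 cells and 560 in endothelial cells. Median depths were 2173.5 UMIs in the B cell clusters, 3421 in T or NK cells and 3515 in endothelial cells. As genes differ in length and capture, each gene is compared between cells only.

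**Figure D5:**
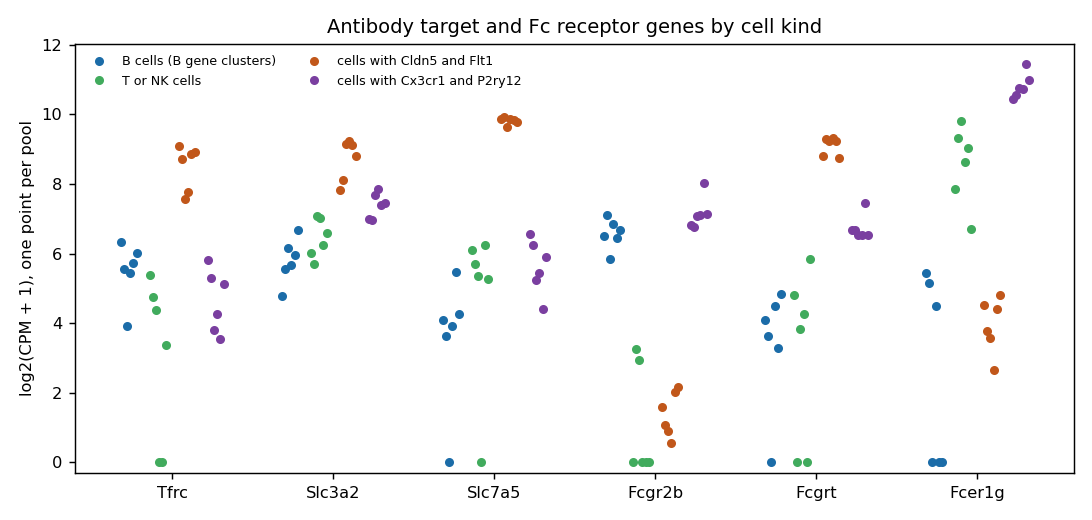
Level of 6 receptor genes as log2(CPM + 1) (y axis), 1 point per pool, in cells of the B cell clusters, T or NK cells, cells with 2 or more UMIs of Cldn5 and Flt1 and cells with 2 or more UMIs of Cx3cr1 and P2ry12. For Fcgr2b the T or NK points lie below those of B cells, of which that of control IgG pool 1 is a 0 from 5 cells with a floor of 224 CPM, and all pools of endothelial cells lie above those of B cells for Tfrc, Slc3a2, Slc7a5 and Fcgrt.

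Expression was then compared between treatments on UMIs summed over all 396 cells by pool, 4764 genes in 1 fit of 6 pools. Against control IgG, 169 genes passed with ATV-TfR (3.55% of those tested), 138 higher (2.9%) and 31 lower (0.651%). With ATV-CD98hc 200 passed (4.2%), 172 higher (3.61%) and 28 lower (0.588%). A gene passed with an adjusted p below 0.05 in edgeR's quasi-likelihood test, Benjamini-Hochberg adjusted over all genes tested. The 2 comparisons share the control IgG pools. The split depends on the cells: with at least 3 rule genes, 117 genes were higher and 4 lower with ATV-TfR, of 3782 tested. With ATV-CD98hc these were 159 and 5. In counts simulated for ATV-TfR against control IgG over 4407 genes, 44 of 50 genes raised 4-fold and 26 of 50 lowered 4-fold were found. So were 50 of 50 raised and 45 of 50 lowered 16-fold, and 13 of all 178 calls were false. Every simulated gene had the same common spread, with no uneven mixture of cell kinds between pools, so the recovery is a best case. Single pools moved these counts: without pool 1 of control IgG 392 and 460 genes passed, in that order. Without pool 2 of ATV-TfR the first count was 112, without ATV-CD98hc pools 1 or 2, which enter it only through the filter, the normalization and the spread, 89 or 105, and without pool 1 of ATV-CD98hc the second was 42.

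Of the 9 astrocyte list genes tested 8 were higher with each ATV, against 2.9% and 3.61% of all genes tested. The median log2 difference was 4.60 and 4.94 over the 9, where that of all genes tested was 0.005 and -0.001. The list includes the excluding genes Aqp4 and Gja1, which had helped to choose the cells, so nothing is read from their result. Clu (clusterin) was at 409 and 342 CPM in the ATV-TfR pools, 683 and 418 with ATV-CD98hc and 5.59 and 0 with control IgG, a log2 difference of 7.15 ± 0.68 (SE) for ATV-TfR and 7.71 ± 0.66 for ATV-CD98hc. Aldoc (5.21 and 5.50), Slc1a2 (4.75 and 5.22) and Slc1a3 (4.60 and 4.97) followed, and Cspg5, Tril, Nkain4 and Fjx1, all at 0 UMIs in both control IgG pools, passed with both. These last genes could enter the test only through the ATV pools, which fixed their direction in advance. The summed level of the 10 astrocyte genes in these cells was 3597 to 5426 CPM in the ATV pools and 55.9 and 477 CPM in those of control IgG, and in all other cells it was 7685 to 13769 and 1023 and 8333 CPM. The 32 astrocyte-led cells were 12, 19 and 1 in the 3 treatments.

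Of the genes listed for border macrophages 1 of 6 tested was lower with each ATV, and 0 of 9 for microglia, where 0.651% and 0.588% of all genes tested were lower. With ATV-TfR and ATV-CD98hc the median log2 differences were -2.39 and -1.60 for border macrophage genes and -2.50 and -1.01 for microglia genes. Those of all genes tested were 0.005 and -0.001. Fcer1g was lower by 3.13 ± 0.67 and 3.18 ± 0.67 on the log2 scale (SE) with ATV-TfR and ATV-CD98hc, where control IgG held 45 of the 57 macrophage-led cells. In the B cell clusters this order was absent: Fcer1g had 0 UMIs in both control IgG pools, 0 and 3 with ATV-TfR and 8 and 3 with ATV-CD98hc. These UMIs lay in 8 of the 278 cells. A floor of 3 counts over the control IgG cells lies 2.98-fold below the level with ATV-CD98hc. As this floor takes UMIs as independent, no minimum fold follows. In all 396 cells Fcrls was at 89.4 and 1282 CPM with control IgG, 0 and 4.96 with ATV-TfR, and 22.8 and 116 with ATV-CD98hc, and passed against control IgG for the former. Adgre1, Basp1 and Ms4a7 (of macrophages) were lower with both in all 396 cells, and in the B cell clusters Ms4a7 had no UMI and Adgre1 had 1. Fcrls, Adgre1 and Basp1 are leading genes of cluster 8, all of whose cells came from pool 2 of control IgG. Mgp, a matrix protein of vessel walls and fibroblasts, was in all 396 cells at 397 and 63.6 CPM with control IgG, 0 in both ATV-CD98hc pools and 7.17 and 19.8 with ATV-TfR.

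Among the lists of B cell genes few passed, as among all genes tested (3.55% and 4.2%), and nothing particular to B cell genes is read from their counts. None of the 6 rule genes passed, but they had chosen the cells, so nothing is read from their result. None of 17 for B cell receptor signalling, 17 transcription factors, 10 of MHC class II or 4 light chain genes passed in either comparison. Of 15 other B cell genes, Fcmr alone was higher with ATV-TfR (1.26 ± 0.30, adjusted p = 0.0427, edgeR), at 430 and 510 CPM against 184 and 204 in all 396 cells. In the B cell clusters it differed by 0.81 and did not pass (adjusted p = 0.725, edgeR). S1pr1, of the homing list, was higher with both (1.67, adjusted p = 0.0222, and 1.95, adjusted p = 0.0063, edgeR), but in the B cell clusters its differences were 0.37 and 0.18 and did not pass. Igll1 and Vpreb1 were the 2 of 7 tested precursor genes that were lower with ATV-TfR (Vpreb1 by 4.82 on the log2 scale, adjusted p = 0.0056, edgeR), and none of the 7 passed with ATV-CD98hc. Of the receptors, Slc3a2 differed by 0.07 ± 0.40 and -0.73 ± 0.41 and Fcgr2b by -0.59 ± 0.46 and -0.35 ± 0.44 (log2, SE), and neither passed. Tfrc was too low to be tested.

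In the B cell clusters alone, with fewer cells and 2778 genes tested, few genes passed. Against control IgG 4 genes passed with ATV-TfR (0.144%, of which 0.072% higher and 0.072% lower) and none with ATV-CD98hc, where 117 had an unadjusted p below 0.05. The 4 were Igll1 and Vpreb1, lower, and the astrocyte genes Slc1a2 and Gpc5, higher. Slc1a2 was at 284 and 250 CPM with ATV-TfR, 84.9 and 137 with ATV-CD98hc and 17.4 and 18.4 with control IgG, and Gpc5, named after its values were seen, was at 170, 121, 74.3, 114, 0 and 0 CPM in that order. With 0 UMIs in both control IgG pools, Gpc5 could enter the test only through the ATV pools.

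Between the antibodies, no gene passed among all 396 cells (edgeR, 92 genes at an unadjusted p below 0.05; DESeq2 also 0, with 27). Leaving control IgG pool 1 out of the fit gave 4 genes (Igll1, Lgals3, S100a4 and Vtn) and leaving out pool 2 gave 2 (Lgals3 and Vtn), and without ATV-CD98hc pool 2 or ATV-TfR pool 1 there was 1 (Lyz2 or Jchain), all named after their values were seen. In the B cell clusters Igll1 and Vpreb1 passed, lower with ATV-TfR (0.072% of 2778 genes), and no gene was higher. The cells compared came from different bins: 52 of the 80 ATV-TfR cells were from the medium bin, 72 of the 112 ATV-CD98hc cells and 78 of the 86 control IgG cells from the low bin, and the part of the bin in these differences was not tested.

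Cells of each library were assigned to the male or the female mouse of the pool by Xist and Y-linked genes, and in the negative bin the ATVs were compared over animals. Of all 396 cells, B cells there were 0 of 2334, 1 of 4173, 0 of 2130 and 5 of 2573 assigned cells in the 4 ATV-TfR mice. In the 4 ATV-CD98hc mice they were 5 of 2477, 2 of 2745, 0 of 1079 and 0 of 1459. The mean logit share differed by -0.53 (ATV-TfR minus ATV-CD98hc, p = 0.486, two-sided exact permutation test over animals), and by -1.64 without pool 2 and 0.58 without pool 1 of each, so the direction rested on the pool.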

How the data were processed

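UMI counts per gene and barcode from droplet single-cell RNA sequencing were used as deposited, for 32285 genes in 23 libraries. Per the submitters' processing notes, Cell Ranger 7.1.0 and Seurat 4 and 5 were used, with the builds mm10 and GRCm38; no settings are stated there. Barcode numbers were joined to libraries through the deposited index of library names. The cells, gene lists and tests were chosen with earlier results of these data known. The cut that picked the B cell clusters, on rule genes and excluding genes, was set after the clusters' leading genes were seen.

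Barcodes were kept from 500 genes and 800 UMIs upward, where mitochondrial UMIs did not pass 10%. The 396 B cells were clustered by the Leiden method (scanpy 1.11.5, igraph 0.11.9) on 1500 variable genes, 20 principal components and 15 neighbours at resolution 1. Leading genes had a UMI in at least 25% of the cluster's cells, with 20 CPM added before ratios. Doublets were marked by Scrublet per library, with its automatic threshold or, where that marked under 0.5% or over 25% of barcodes, at percentile 94, and were kept in the main results.

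Shares were compared as logits with 0.5 cells added to each side, by exact permutation of bin labels over the libraries of a treatment. UMIs were summed over the B cells of each pool and fitted for all 6 pools with edgeR 4.0.16 (limma 3.58.1, R 4.3.3; quasi-likelihood test, TMM factors, adjusted p below 0.05); DESeq2 1.42.0 was an alternative. The script was tested on simulated data. Each pool is 2 mice, and a treatment has only 2 pools. The p-values of the edgeR fits measure the spread between pools. Permuting bin labels over the libraries of a treatment does not measure that spread, and the test in the negative bin is over animals. The bins of a pool come from the same mice, which pairs libraries within a treatment; across treatments a pool number is only a number. Named genes were the rule genes, list genes found in at least 5% of B cells, the 25 most enriched, the 10 largest rises and falls among called genes, and 6 receptors; Igll1 and Vpreb1 are such falls. Intervals are exact binomial at 95%, and the limit for a count of 0 is 3 counts. Alternatives were other normalizations, filters, marker minimums, doublet removal, cells of 1 sex, the replicate block and leaving out each pool.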

Additional observations from a re-analysis of the deposited data

Results flagged for a closer look

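The change of the B cell share of all kept cells from the low to the medium bin had opposite signs under the 2 antibodies in every pool. As log2 of the medium over the low share, with 0.5 cells added to each count, it was 2.93 and 1.81 in the ATV-TfR pools and -1.65 and -0.99 in the ATV-CD98hc pools, a mean difference of 3.69. In the B cell clusters alone the values were 3.05 and 2.34 against -1.68 and -0.69. Control IgG had -1.10 and 0.04 for cells by the rule and -4.67 and -2.37 in the B cell clusters, where the medium bins held 0 and 1 such cells. T or NK cells had -1.57 and -1.36 with ATV-TfR and -0.67 and -0.45 with ATV-CD98hc. The endothelial share of the medium bin was 21.4% and 19.9% with ATV-TfR and 89.5% and 89.2% with ATV-CD98hc, and among non-endothelial cells the opposite signs were gone. There the values were 3.12 and 2.10 with ATV-TfR, 0.99 and 1.84 with ATV-CD98hc and -2.01 and -1.32 with control IgG, and in the B cell clusters 3.35 and 2.63, 1.22 and 2.18, and -5.61 and -3.73. The difference itself was not tested.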

How the results depend on the processing

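Share trends turned or passed under other denominators and cell sets. Among non-endothelial cells the slope was 1.079 with ATV-TfR (now past the threshold) and 0.80 with ATV-CD98hc (reversed). For B cell clusters among those cells it was 1.16, 0.53 and -0.65, and for B cell clusters of all kept cells -0.45 with control IgG, with or without the replicate block. It was -0.21 with at least 3 markers (control IgG), and with ATV-TfR 0.62 in male cells (past the threshold, but not with the block) and -0.079 in female cells. Leaving out 1 pool gave -0.053 to 0.34 (ATV-TfR), -0.55 to 0.0093 (ATV-CD98hc) and -0.18 to 1.04 (control IgG), and -1.64 to 0.58 for the negative bin over animals. The B to T or NK slope was 1.96 with ATV-TfR (adjusted p = 0.0643, exact permutation test) and -0.33 with control IgG in B cell clusters, and 1.05 with ATV-CD98hc without doublets (adjusted p = 0.0286, now past the threshold). Leaving out 1 pool it ran from 1.63 to 2.17, 0.35 to 1.28 and 0.28 to 1.85. The cause was not tested in these cases.

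With the replicate block, which pairs the bins of a pool, the ratio slopes of 1.90 (ATV-TfR) and 1.36 (control IgG) lost their calls (adjusted p = 0.0625 for each, exact permutation test). The slopes of 1.079 and 0.80 among non-endothelial cells and of 1.16 in the B cell clusters among them kept theirs (the other 2 there were 0.53 and -0.65, not called). Across treatments, where pool numbers are only numbers, the block gave 151, 192 and 0 genes, 141 and 181 of them shared with the main calls, and Kcnk1 (ATV-TfR against control IgG) no longer passed.

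Genes passing numbered 542, 625 and 23 with no filter on low counts (16713 genes tested), and 4, 0 and 2 in the B cell clusters (fewer cells and genes). Leaving out 1 pool of any treatment gave 89 to 392, 42 to 460 and 0 to 4. DESeq2 gave 118, 137 and 0. The 40 named gene results here are the largest rises and falls among called genes. Of their 538 values under alternatives, 462 kept their side of the threshold, 76 no longer passed and 0 reversed. A gene not tested under an alternative gave no value there. In the B cell clusters only 2 of the 40 had a value, and both kept their side. With at least 3 rule genes 19 kept it and 5 no longer passed, so most named results are not assessed in the B cell clusters. Tests of positive against negative gates, and of the negative bin alone, were not run because the largest negative sum held 10 cells, under the minimum of 20. Depth limits the receptors: in the B cell clusters Tfrc rests on 39 UMIs, Fcer1g on 14, Slc7a5 on 13 and Fcgrt on 11.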

Other observations

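Weighting each bin by the flow cytometry shares, with 30% positive cells in equal tertiles, gave an estimate of how many of all B cells carried AF647 in the ATV-TfR mice. It was 58.7% and 36.1% in the 2 pools for cells by the rule and 67.6% and 35.7% for the B cell clusters, against 4.57% and 1.53% for T or NK cells. These estimates rest on 2 and 6 negative-bin cells by the rule, 1 and 5 of the B cell clusters, and the exact 95% interval of the pool 1 negative share by the rule was 0.00269% to 0.0804%. The flow share is an approximate value from the labels and carries no error here. Depending on which bin's share was used for all positive cells, the estimates for cells by the rule ran from 26.3% to 75.7% and from 19.5% to 53.3%. The same range, for cells by the rule, was 5.07% to 41.2% in pool 1 of ATV-CD98hc and 12.1% to 24.4% in pool 2 of control IgG. For the B cell clusters it was 3.44% to 34.0% and 0% to 14.4%. The rule's cells in the medium and high bins of control IgG were mostly not of those clusters. Pool 2 of ATV-CD98hc, with 0 B cells in its negative bin, gave 100% for any bin for cells by the rule.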
